A study of Mus musculus with 8 samples.

Results

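The regulatory T cell genes described here are Foxp3, Ctla4, Icos, Il2ra, Tnfrsf18, Tnfrsf4, Ikzf2 and Ikzf4, and every row of the deposited expression table that carries 1 of these 8 symbols was taken, 11 RefSeq transcripts of 23517 in all. Regulatory T cells are a small class of CD4+ T cells that restrain other lymphocytes, and the transcription factor Foxp3 is needed for their identity and function. They carry the inhibitory receptor CTLA-4, the α chain of the high-affinity interleukin-2 receptor (Il2ra, also called CD25) and the TNF receptor family members GITR (Tnfrsf18) and OX40 (Tnfrsf4), and they draw on interleukin-2 made by other T cells. Most of the 8 genes do not mark these cells alone: activated conventional T cells raise Il2ra, Tnfrsf4, Tnfrsf18, Icos and Ctla4, and follicular helper T cells express Icos and Ctla4.

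Whole-spleen RNA was sequenced from 4 wild-type male mice and 4 male mice carrying TTPΔARE, all C57BL/6 and 8 to 12 weeks old. TTPΔARE is an allele of Zfp36 that lacks the AU-rich element of its own mRNA. Zfp36 encodes tristetraprolin (TTP), a protein that binds AU-rich elements in mRNAs and promotes their decay. The mice were untreated, each sample was 1 spleen, and the labels do not say whether the TTPΔARE mice carried 1 or both copies of the allele. Expression was given as FPKM, fragments scaled to transcript length and library size. The question was whether the regulatory T cell genes differed between the genotypes, as measured and relative to Cd4, which encodes the coreceptor of the parent class of T cells, in the same spleen.

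Zfp36, the gene that carries the allele, stood at 36.4 to 44.9 FPKM in wild-type and 46.1 to 57.5 FPKM in TTPΔARE spleens (log2 0.39, limma adjusted p = 0.0323). This call was lost when wild-type spleen 1 or 4 was left out (adjusted p = 0.0665 and 0.0918), and also on leaving out TTPΔARE spleen 1, 3 or 4 (0.0734, 0.108 and 0.0862). Depth, estimated from the steps between low values, was 28380000 to 32380000 fragments a spleen, at which 1 Foxp3 transcript row rests on an estimated 61.1 to 152.6 fragments. The globin share of all FPKM was 3.03 to 5.53% among wild-type spleens, against 7.19 to 10.3% among those with the allele. Erythroid markers moved with the genotype: 4 of 21 rose, all 21 had an unadjusted p under 0.05 by limma, and their median log2 difference was 1.25. Of 12410 symbols tested 2.26% rose and 2709 had such an unadjusted p. Wild-type replicate 3 stood apart, with an erythroid mean 1.03 above the wild-type mean on the log2 scale, against -0.58, -0.69 and 0.24 in the other wild-type spleens. Its globin share was low, at 3.22%, so the share and the marker mean did not go together in this spleen. Its neutrophil and megakaryocyte marker means stood 0.88 and 0.48 above the wild-type mean. Without this spleen 20 of the 21 erythroid markers rose, against 1 without wild-type replicate 4 or TTPΔARE replicate 3 and 2 without TTPΔARE replicate 4. Their part in the results below was not tested beyond a fit with their mean as a covariate. That mean was 0.66 to 1.69 above the wild-type mean in the TTPΔARE spleens, so it partly follows the genotype. The fit left no call in any list, and a call lost under it cannot be ascribed to either. Since these are bulk samples, fewer cells of a type and less RNA per cell cannot be told apart.

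Whole-spleen levels of the 8 genes were low, and no transcript passed the test between the genotypes. By limma 0 of the 11 transcripts passed an adjusted p of 0.05, over all 16608 transcripts tested, of which 4% passed (2.01% upward and 1.99% downward), and 1 of the 11, a Tnfrsf18 transcript, had an unadjusted p under 0.05 against 21.1% of all tested. All 11 passed the filter of a mean of at least 0.5 FPKM. The median log2 difference was -0.04 for the 11 and 0.003 for all tested transcripts, and 5 of the 11 were above 0.

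**Figure D1:**
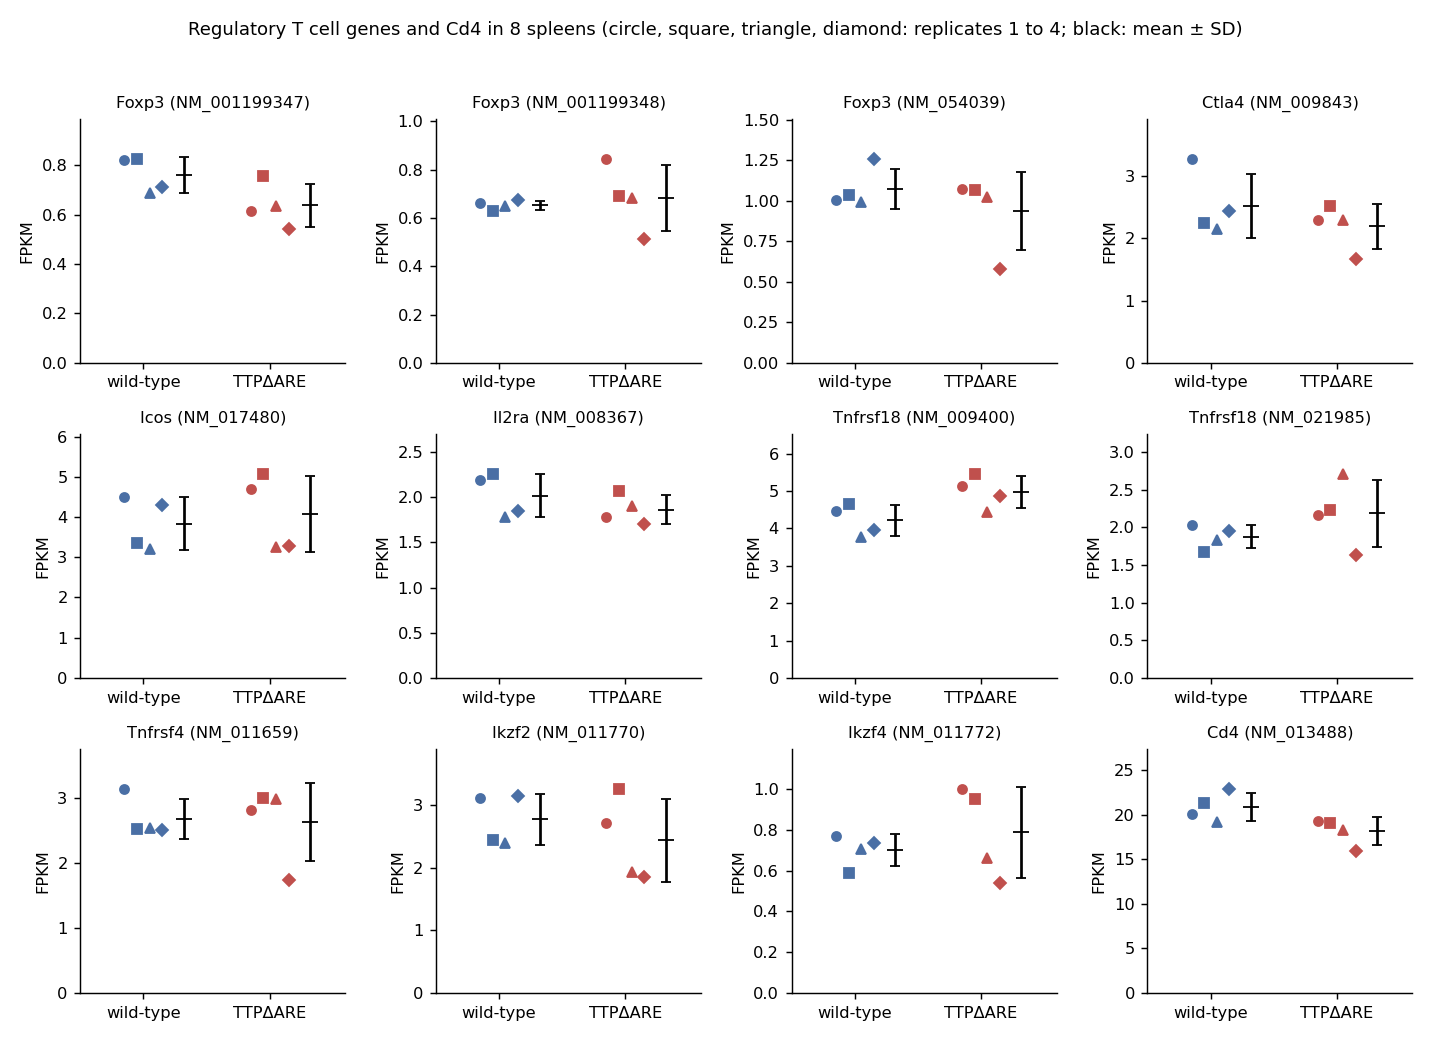
FPKM of each regulatory T cell transcript and of Cd4 (y axes, from 0) in wild-type (blue) and TTPΔARE (red) spleens; symbols are single spleens, replicates 1 to 4, and black bars are mean ± SD. The genotypes overlap in all 12 panels, and the red diamond, TTPΔARE replicate 4, lies lowest in 9 of the 11 transcript panels.

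Foxp3, the master factor of the lineage, had 3 transcript rows, 3681 to 3834 bases long and from 1 gene, so they are not independent. Summed over the 3, Foxp3 stood at 2.48, 2.49, 2.32 and 2.64 FPKM in wild-type replicates 1 to 4 and at 2.53, 2.51, 2.34 and 1.63 FPKM in the TTPΔARE replicates. Thus 3 TTPΔARE spleens lay within the wild-type range and TTPΔARE replicate 4 below it. The summed log2 difference was -0.13, with a 95% interval of -0.37 to 0.12 (limma adjusted p = 0.551, in a fit of 12624 symbols of which 4.36% passed). Of the single rows, NM_054039 was the highest at 1.07 ± 0.124 FPKM in wild-type and 0.935 ± 0.240 FPKM in TTPΔARE (SD, n = 4 each), NM_001199347 stood at 0.761 ± 0.0713 and 0.637 ± 0.0884 FPKM, and NM_001199348 at 0.653 ± 0.0182 and 0.683 ± 0.135 FPKM. How shared reads were divided among these transcripts was not stated.

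The surface receptors of the B7 ligands came next. Ctla4, which takes CD80 and CD86 away from the activating receptor CD28, stood at 3.26, 2.24, 2.14 and 2.44 FPKM in wild-type and 2.29, 2.52, 2.29 and 1.67 FPKM in TTPΔARE spleens. The ranges overlapped, with wild-type replicate 1 the highest and TTPΔARE replicate 4 the lowest, and the log2 difference was -0.16 (95% interval -0.44 to 0.12, limma adjusted p = 0.515). Icos, the costimulatory receptor of ICOS ligand, stood at 4.49, 3.35, 3.19 and 4.29 FPKM in wild-type and 4.69, 5.06, 3.24 and 3.29 FPKM in TTPΔARE spleens. Each genotype held both high and low spleens, and the difference was 0.07 (-0.25 to 0.39). Ctla4 and Icos are neighbours on chromosome 1, 44.9 kb apart and beside Cd28 (Ctla4 at 60909025 to 60915832 and Icos at 60960773 to 61000322, GRCm38/mm10). Cd28 itself stood at 8.18 ± 0.956 and 7.68 ± 0.512 FPKM (SD, n = 4 each; log2 -0.08, limma adjusted p = 0.635).

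Il2ra, the interleukin-2 receptor α chain, stood at 2.19, 2.25, 1.78 and 1.85 FPKM in wild-type and at 1.78, 2.07, 1.90 and 1.71 FPKM in TTPΔARE spleens. The TTPΔARE values lay in or just under the wild-type range (log2 -0.09, 95% interval -0.28 to 0.10, limma adjusted p = 0.609). Its interval was among the narrower of the 11.

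Tnfrsf18, which encodes the costimulatory receptor GITR, was the member with the largest values above wild-type. Its longer transcript, NM_009400, stood at 4.45, 4.65, 3.78 and 3.96 FPKM in wild-type and at 5.13, 5.44, 4.44 and 4.87 FPKM in TTPΔARE spleens, with 1 TTPΔARE spleen inside the wild-type range. The log2 difference was 0.22, 1.16-fold, with a 95% interval of 0.04 to 0.39 (limma unadjusted p = 0.0218, adjusted p = 0.156), so it did not pass. NM_021985 was at 1.88 ± 0.154 and 2.19 ± 0.439 FPKM (SD, n = 4 each; log2 0.16, adjusted p = 0.447). With both transcripts summed the groups did not overlap, at 5.62 to 6.49 FPKM in wild-type and 6.50 to 7.68 FPKM in TTPΔARE, though the nearest spleens were almost level, and the difference of 0.22 still did not pass (limma adjusted p = 0.105, with 2.35% of symbols passing upward; unadjusted p = 0.00973, with 21.8% of symbols under 0.05). Without overlap stood 12.5% of all tested transcripts.

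Tnfrsf4, which encodes OX40, lies 9.71 kb from Tnfrsf18 on chromosome 4 (156013595 to 156016613 against 156026322 to 156028894). It stood at 3.13, 2.53, 2.54 and 2.52 FPKM in wild-type and 2.81, 3.0, 2.98 and 1.73 FPKM in TTPΔARE spleens. The first 3 TTPΔARE values were above the lower 3 wild-type ones and the last was below all, which gave a log2 difference of -0.04 (95% interval -0.34 to 0.26), and 0.11 without TTPΔARE replicate 4 (limma adjusted p = 0.550).

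Ikzf2 (Helios) and Ikzf4 (Eos) are zinc finger factors of the Ikaros family, and Eos is a partner of Foxp3 in gene silencing. Ikzf2 stood at 3.11, 2.44, 2.39 and 3.14 FPKM in wild-type and at 2.72, 3.25, 1.93 and 1.85 FPKM in TTPΔARE spleens (log2 -0.17, 95% interval -0.50 to 0.15, limma adjusted p = 0.551). Ikzf4 stood at 0.769, 0.588, 0.706 and 0.738 FPKM in wild-type and 0.999, 0.953, 0.662 and 0.537 FPKM in TTPΔARE spleens (log2 0.09, -0.18 to 0.36). For both genes TTPΔARE replicates 1 and 2 lay above replicates 3 and 4, and the wild-type values fell between the extremes.

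Since TTP binds AU-rich elements, the longest 3′ UTR annotated for each of the 8 genes in GENCODE M21 was searched on the transcript strand for TATTTAT, the core heptamer, and TTATTTATT, the nonamer that contains it. Ikzf2 held 3 heptamers in 7554 bases and Ikzf4 held 1 in 3205 bases, while the longest 3′ UTRs of Foxp3, Ctla4, Icos, Il2ra, Tnfrsf18 and Tnfrsf4 held none, and the nonamer was found in none of the 8. Of 21020 genes with a 3′ UTR, 27.6% held at least 1 heptamer and 7.66% the nonamer. The 4 matches are printed because Ikzf2 and Ikzf4 are the members in which the motif was found; the heptamer is in capitals with 10 bases on each side, 5′ to 3′ on the minus strand of GRCm38/mm10, at 69537547 to 69537573, 69536565 to 69536591 and 69532196 to 69532222 on chromosome 1 and at 128633543 to 128633569 on chromosome 10. A match is a description of letters and not a measured binding site.
Ikzf2 site 1: ttactagggcTATTTATtccactattt
Ikzf2 site 2: gtgaaaaggaTATTTATttctgaatga
Ikzf2 site 3: gtattattcaTATTTATatgtagtgtg
Ikzf4 site 1: tcctcaccctTATTTATctgacccttc

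In wild-type spleen, Tnfrsf18 (6.09 ± 0.392 FPKM with its transcripts summed; SD, n = 4) and Icos (3.83 ± 0.653 FPKM) had the highest levels per length. Ikzf2 (2.77 ± 0.409 FPKM), Tnfrsf4 (2.68 ± 0.303), Ctla4 (2.52 ± 0.511), Foxp3 (2.48 ± 0.130 summed) and Il2ra (2.02 ± 0.238) followed, and neighbours in this run differed by less than their SDs except Foxp3 and Il2ra. Ikzf4 was lowest at 0.700 ± 0.0793 FPKM. For comparison Cd4 was at 20.9 ± 1.56 FPKM.

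TTPΔARE replicate 4 had the lowest value of its group for 9 of 11 transcripts, and for those 9 the lowest of all 8 spleens. It stood 0.54 below the wild-type mean on the log2 scale for Foxp3 NM_054039, 0.51 below for Tnfrsf4, 0.47 below for Ikzf2 and 0.46 below for Ctla4. The same spleen was 0.19 above for Tnfrsf18 NM_009400. Its mean deviation was -0.29 over the 8 members and -0.16 over 20 T cell markers, and its erythroid marker mean was 1.65 above the wild-type mean, next to 1.69 in TTPΔARE replicate 3. What part these have in its low values was not tested. Without this spleen 0 of 11 transcripts passed by limma, as with it.

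**Figure D2:**
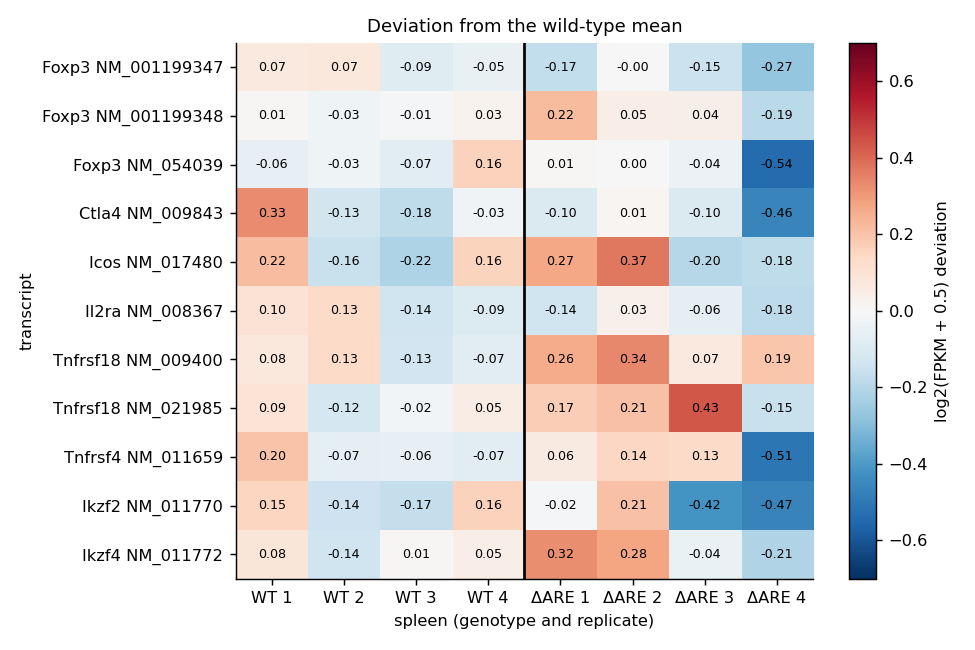
Deviation of each transcript (rows) in each spleen (columns, 4 wild-type left and 4 TTPΔARE right) from the wild-type mean on the log2(FPKM + 0.5) scale, red above and blue below. The last column is blue in all rows except Tnfrsf18 NM_009400, with Foxp3 NM_054039 at -0.54.

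Cd4 was lower in TTPΔARE spleens in all but 1 comparison of single spleens. It stood at 20.1, 21.3, 19.2 and 22.8 FPKM in wild-type and 19.3, 19.1, 18.3 and 15.9 FPKM in TTPΔARE spleens (log2 -0.20, 95% interval -0.36 to -0.03, limma adjusted p = 0.164; exact two-sided permutation p = 0.0571, n = 4 each). It did not pass over all transcripts, and Cd4 is also made by some dendritic cells and macrophages of the spleen. Of the 20 T cell markers 12 lay below 0 and 8 above, and none passed by limma. An unadjusted p under 0.05 was seen for 8 of them, against 2709 of 12410 symbols. Without wild-type replicate 3, 2 of the markers fell. Cd5 (log2 -0.31), Cd3d (-0.24), Cd6 (-0.24), Cd247 (-0.22), Tcf7 (-0.21) and Cd2 (-0.20) had values at or below that of Cd4, while Cd8a stood at 0.19. The first 3 of the 20 markers named here were without overlap between the groups, as were 12.5% of all tested transcripts. Cd3e, a chain of the T cell receptor complex and 1 of the alternative denominators, stood at 21.1 ± 1.0 and 21.5 ± 1.73 FPKM (SD, n = 4 each; log2 0.03). Dividing by Cd4 therefore moved the median of all tested transcripts to 0.20, with 91.7% of them above 0, and 12% passed in either direction, 11.7% upward.

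Relative to Cd4, all 11 transcripts had values above 0, their median of 0.16 lay below the 0.20 of all transcripts, and 1 passed, while 3 had an unadjusted p under 0.05 against 36.6% of all. Foxp3, with its transcripts summed, was at 12.4, 11.7, 12.1 and 11.6% of the Cd4 level in wild-type and at 13.1, 13.2, 12.8 and 10.3% in TTPΔARE spleens. The first 3 TTPΔARE spleens were above all wild-type ones and the last below all, and the log2 difference was 0.07 (95% interval -0.17 to 0.31, limma adjusted p = 0.634). For Foxp3 NM_054039 alone the difference in the mean log2 ratio was 0.05 (exact two-sided permutation p = 0.514, n = 4 each), and 0.13 without TTPΔARE replicate 4 (exact permutation p = 0.0286, the smallest that n = 4 and 3 allows). Leaving out each spleen in turn, it ranged from 0.02 to 0.13 (exact permutation p = 0.0286 to 0.8, limma adjusted p = 0.450 to 0.899). In the same runs this transcript as measured ranged from -0.19 to -0.01 and Cd4 from -0.23 to -0.14. The ratio thus stood above 0 while the transcript itself did not, and below the 0.20 median of all transcripts relative to Cd4. With Cd3e as the denominator the Foxp3 NM_054039 difference was -0.17 (exact permutation p = 0.114). Il2ra was at 9.72 ± 1.29 and 10.3 ± 0.749% of Cd4 and Ctla4 at 12.1 ± 2.76 and 12.0 ± 1.14% (SD, n = 4 each).

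The 1 call among the 11 transcripts relative to Cd4 was near the 12% of all tested, so the count is no result about the members. That call was of Tnfrsf18. Its transcripts summed to 32.3, 29.7, 29.2 and 26.0% of the Cd4 level in wild-type and 37.9, 40.2, 39.1 and 40.9% in TTPΔARE spleens, so the lowest TTPΔARE spleen lay above the highest wild-type spleen. Without overlap relative to Cd4 stood 19.7% of all transcripts. The summed log2 difference was 0.41, 1.33-fold (SE 0.102, 95% interval 0.20 to 0.63, limma adjusted p = 0.0223), against a median of 0.20 for all symbols, of which 12.2% passed, 11.8% upward, and 36.8% had an unadjusted p under 0.05. NM_009400 passed (0.41, adjusted p = 0.0285) and NM_021985 did not (0.36, adjusted p = 0.0580). With Cd3e as the denominator the NM_009400 value was 0.19 and did not pass (adjusted p = 0.503), nor did it with the mean of the T cell markers (0.28, adjusted p = 0.0891). The NM_009400 call was also lost on leaving out wild-type spleen 4 (0.34, adjusted p = 0.0962) or either of TTPΔARE spleens 3 (0.47, 0.0526) and 4 (0.36, 0.0975), as was the summed call (0.0716, 0.0696 and 0.0668). With the erythroid mean as a covariate NM_009400 stood at 0.53 and did not pass (adjusted p = 0.479). Icos (log2 0.26, adjusted p = 0.145) and Ikzf4 (0.28, adjusted p = 0.129) did not pass relative to Cd4.

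**Figure D3:**
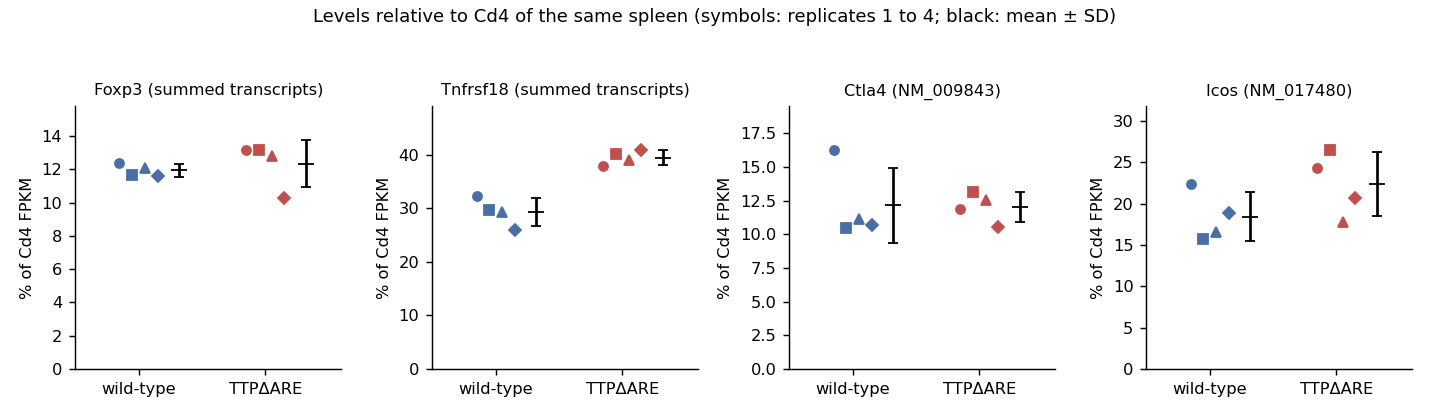
FPKM of 4 regulatory T cell genes as a percentage of Cd4 FPKM in the same spleen (y axes, from 0), wild-type in blue and TTPΔARE in red; symbols are replicates 1 to 4 and black bars mean ± SD. Tnfrsf18 lies at 26.0 to 32.3% in wild-type and 37.9 to 40.9% in TTPΔARE, while the groups overlap for Foxp3, Ctla4 and Icos.

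**Figure D4:**
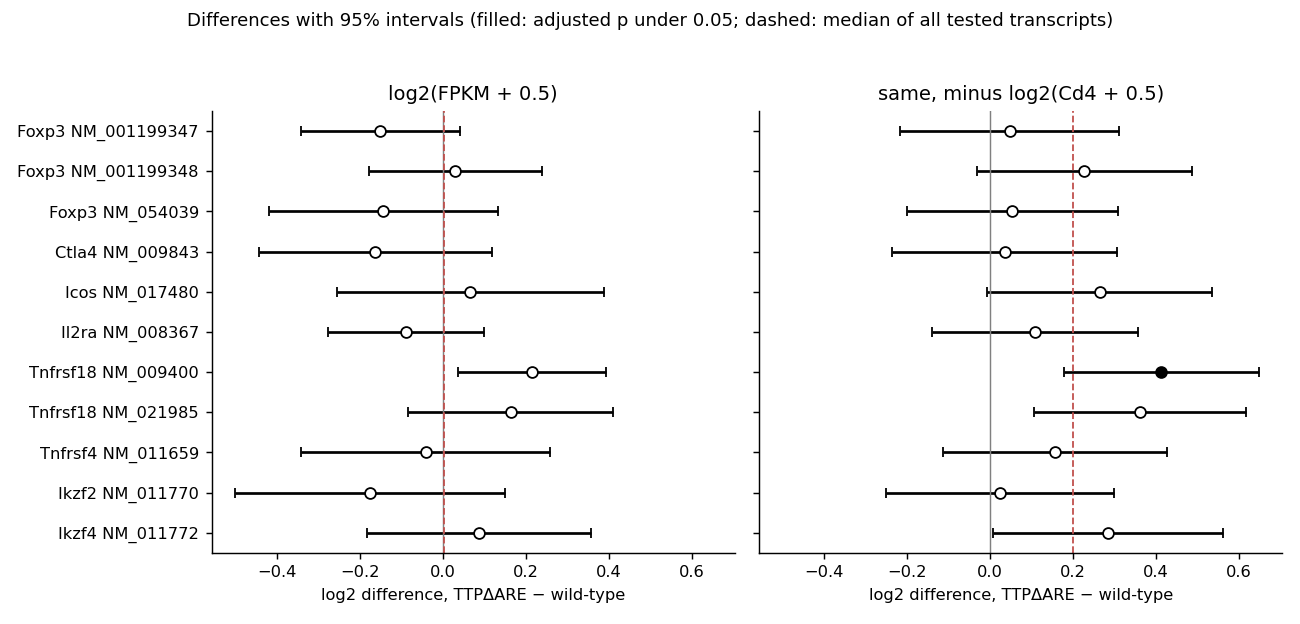
Log2 difference of each transcript, TTPΔARE minus wild-type, with its 95% limma interval, as measured (left) and relative to Cd4 (right); filled points passed an adjusted p of 0.05 and the dashed line is the median of all tested transcripts. Only Tnfrsf18 NM_009400, relative to Cd4, is filled, and in the right panel 6 of the 11 points lie left of the dashed line at 0.20.

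Other genes associated with regulatory T cells, unlike the 8 members, included some that rose. Of 24 tested on a list of 30, 6 rose and 18 did not pass by limma, against 2.26% of 12410 symbols that rose and 1.91% that fell, and the median log2 difference was 0.26 against 0.005 for all symbols. The list was chosen with earlier results of these data known, so this share is a description and no independent support. The largest rise was Gpr83, a G protein-coupled receptor enriched in mouse regulatory T cells. It stood at 0.651, 0.828, 0.736 and 0.966 FPKM in wild-type and 1.75, 1.81, 1.67 and 1.74 FPKM in TTPΔARE spleens, and the groups lay far apart (log2 0.80, SE 0.0862, limma adjusted p = 0.00308). Itgae, the integrin chain CD103, went up from 1.02 ± 0.0445 to 1.76 ± 0.302 FPKM (SD over 4 spleens each; log2 0.56, adjusted p = 0.0121). Ebi3, a subunit of the cytokines IL-27 and IL-35, rose from 2.86 ± 0.332 to 4.31 ± 0.461 FPKM (log2 0.52, adjusted p = 0.0130).

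Penk, which encodes proenkephalin, was 0.654 ± 0.0739 FPKM in wild-type and rose to 1.14 ± 0.167 FPKM (SD, n = 4 each; log2 0.50, limma adjusted p = 0.0171). Fgl2, a secreted fibrinogen-like protein, rose from 14.6 ± 1.39 to 19.7 ± 1.69 FPKM (log2 0.42, adjusted p = 0.0170), and the chemokine receptor Ccr4 from 0.552 ± 0.0621 to 0.877 ± 0.135 FPKM (log2 0.38, adjusted p = 0.0455). Lrrc32, the surface anchor of latent TGF-β on these cells, differed by 0.28 without passing (adjusted p = 0.0851), nor did the ectonucleotidase Entpd1 (0.32, adjusted p = 0.0827), Ccr8 (0.44, adjusted p = 0.123), Tigit (0.26, adjusted p = 0.641), Folr4 (0.22, adjusted p = 0.489) or Nrp1 (0.21, adjusted p = 0.117). Tgfb1, the cytokine itself, stood at 0.06, and Swap70, which B cells also express, at -0.35 (adjusted p = 0.0745). Il10 was under the filter, at 0.209 ± 0.0835 and 0.269 ± 0.0941 FPKM.

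Gpr83, Itgae and Ebi3 passed with any 1 spleen left out. Penk did not pass without TTPΔARE replicate 3 (adjusted p = 0.0658), Fgl2 on leaving out wild-type spleen 4 or TTPΔARE spleens 3 or 4 (0.0547, 0.0517 and 0.0536), and Ccr4 without any single spleen other than TTPΔARE replicate 2 (0.0551 to 0.129). Without TTPΔARE replicate 3 the list had 3 rises. With the mean of the erythroid markers as a covariate limma called 0 of 24. Gpr83 stood at 0.80 in that fit (adjusted p = 0.110), as without the covariate, and Itgae at 0.61 (0.228). That mean partly follows the genotype, so the fit cannot separate the 2 for the genes of this list. Several of these genes are also made by dendritic cells, macrophages or other lymphocytes. Of 13 dendritic cell markers 3 rose (Esam, Xcr1 and Flt3), with sums of 158.5 to 174.3 FPKM in wild-type and 174.4 to 178.8 FPKM in TTPΔARE. Among all symbols 2.26% rose. Esam passed with any 1 spleen left out, while Xcr1 and Flt3 each lost their call with 6 of the 8, and 1 marker of the list rose when spleen 3 or 4 of either genotype was left out. Of 7 innate lymphoid markers tested Kit and Id2 rose, neither of them with every single spleen left out (0 of 7 without wild-type replicate 4 or TTPΔARE replicate 3 or 4), with sums of 45.0 to 62.4 and 69.7 to 75.2 FPKM. Id2 alone, at 35.7 ± 6.03 and 48.0 ± 3.42 FPKM (SD, n = 4 each), made up most of these sums. No marker of either list was at 0 in all 8 spleens, and their part in the rises was not tested. Of 20 T cell markers and of 9 follicular helper markers 0 passed by limma, with medians of -0.06 and -0.09. An unadjusted p under 0.05 was seen for 8 and 2 of them, against 2709 of 12410 symbols. Without wild-type replicate 3, 2 T cell markers fell, and without TTPΔARE replicate 2, 1 follicular helper marker fell.

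**Figure D5:**
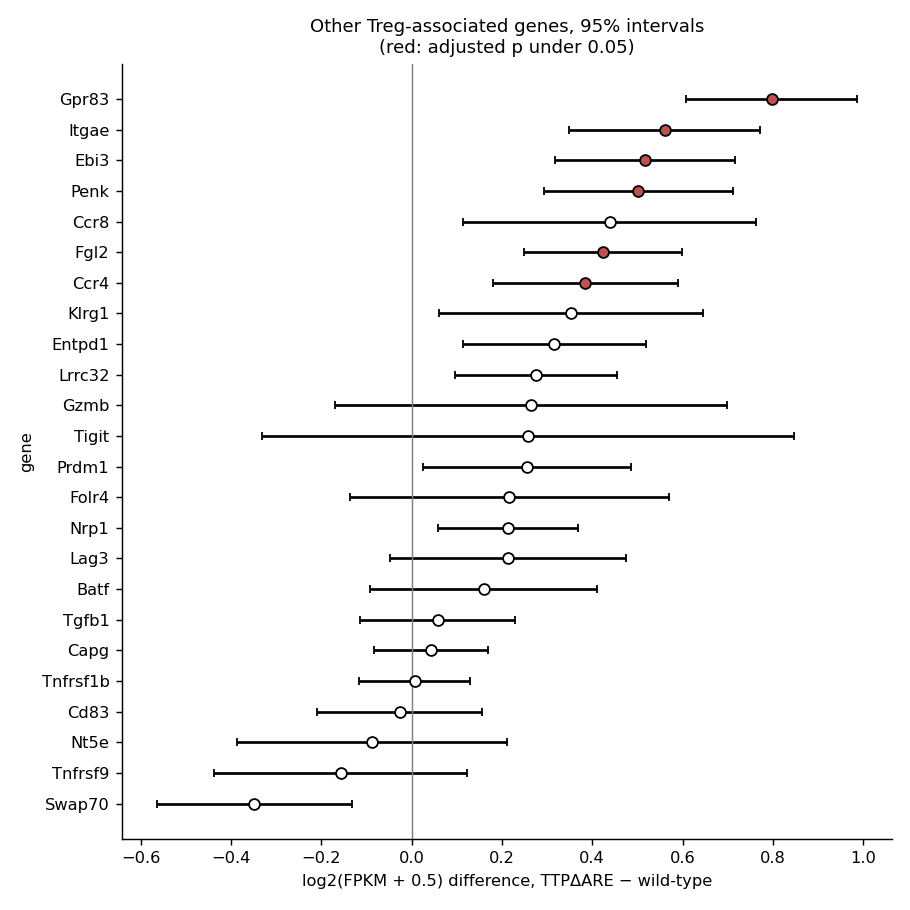
Log2 difference, TTPΔARE minus wild-type, with its 95% limma interval (x axis) for 24 other genes associated with regulatory T cells (y axis); red points passed an adjusted p of 0.05. Gpr83 lies farthest right at 0.80, and 20 of 24 points are above 0.

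Most ligands and partner chains of the 8 members did not pass. Among 15 tested genes of the interleukin-2 receptor and STAT5 pathway, 2 rose and 13 did not pass, with a median of -0.01. Of all 12410 symbols 2.26% rose and 1.91% fell. Il2rb, the β chain that pairs with Il2ra, was 26.8 ± 1.18 FPKM in wild-type and rose to 32.7 ± 1.58 FPKM (SD, n = 4 each; log2 0.28, limma adjusted p = 0.0218), and Il7r, the interleukin-7 receptor, rose from 16.6 ± 2.08 to 22.0 ± 2.36 FPKM (log2 0.40, adjusted p = 0.0477). Il2rb lost its call on leaving out wild-type spleen 4 or TTPΔARE spleens 3 or 4 (adjusted p = 0.0662, 0.0849 and 0.0680). Il7r lost it without any single spleen other than wild-type replicate 2 or TTPΔARE replicate 1 (0.0696 to 0.143). The common chain Il2rg stood at 63.8 ± 3.73 and 62.0 ± 3.77 FPKM, and the cytokine Il2 at 0.0349 ± 0.0273 and 0.108 ± 0.0846 FPKM, under the filter. The STAT5 target Cish stood at 1.68 ± 0.190 and 2.01 ± 0.406 FPKM (log2 0.19, adjusted p = 0.381).

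Among 10 genes of the CD28 family and its ligands 1 rose, 1 fell and 8 did not pass. The counts of this paragraph stand beside 2.26% of all symbols that rose and 1.91% that fell. Cd80, a ligand of CTLA-4, was 2.99 ± 0.212 FPKM in wild-type and rose to 4.14 ± 0.418 FPKM (SD, n = 4 each; log2 0.41, limma adjusted p = 0.0177), though not without TTPΔARE replicate 3 or 4 (adjusted p = 0.0602 and 0.0556). The other ligand, Cd86, stood at 21.1 ± 2.45 and 22.7 ± 2.55 FPKM, and Icosl, the ligand of ICOS, at 45.4 ± 1.25 and 43.5 ± 1.37 FPKM. The inhibitory receptor Btla, which B cells also carry, fell from 30.5 ± 1.85 to 21.8 ± 2.91 FPKM (log2 -0.48, adjusted p = 0.0166). Of 13 B cell markers 3 fell, and only Cr2 lay above 0, without passing (log2 0.31, adjusted p = 0.121). This B cell count grew to 5 once wild-type spleen 3 was dropped. It stayed at 3 on dropping wild-type spleen 1, and likewise TTPΔARE spleen 2. Dropping any of the remaining spleens lowered it to 2. Among the remaining lists, 2 of 9 megakaryocyte and 2 of 12 neutrophil markers rose, and of the 3 TTP family genes Zfp36 rose and 1 fell. The megakaryocyte count was 8 without wild-type replicate 3, 5 without TTPΔARE replicate 2 and 1 without any other single spleen. The neutrophil count was 0 without TTPΔARE replicate 3 and 1 without wild-type replicate 4 or TTPΔARE replicate 4.

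Of 9 tested TNF receptor costimulation genes 0 passed by limma and 1, Cd27, had an unadjusted p under 0.05 (log2 -0.17, adjusted p = 0.203), with a list median of -0.11. Such an unadjusted p was seen for 2709 of 12410 symbols. Tnfsf18, the ligand of GITR, was under the filter at 0.490 ± 0.147 and 0.489 ± 0.0928 FPKM (SD, n = 4 each). Tnfsf4, the ligand of OX40, was also under it, at 0.110, 0.0793, 0.149 and 0.212 FPKM in wild-type and 0.329, 0.279, 0.373 and 0.309 FPKM in TTPΔARE spleens, without overlap. Of transcripts that passed the filter 12.5% were without overlap, and for those under it no such share was counted. In a fit with no filter Tnfsf4 rose by 0.37 on the log2(FPKM + 0.5) scale (limma adjusted p = 0.0294, against 1.08% of 23517 transcripts that rose). That call was lost without any single spleen other than wild-type replicate 4 (adjusted p = 0.0558 to 0.113), and with the erythroid mean as a covariate (0.24, adjusted p = 0.527).

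Among 29 tested regulators and partners of Foxp3, 1 rose, 1 fell and 27 did not pass, with a median of -0.03. These shares are near the 2.26% of all symbols that rose and the 1.91% that fell, so the count is no result about the list. By limma 12 of the 29 had an unadjusted p under 0.05, against 2709 of 12410 symbols. Nr4a1, a nuclear receptor induced by antigen receptor signals that can activate Foxp3, fell from 15.1 ± 1.21 to 11.4 ± 0.969 FPKM (SD, n = 4 each; log2 -0.38, limma adjusted p = 0.0217). Nfatc2, a calcium-regulated factor that binds beside Foxp3, rose from 2.43 ± 0.199 to 3.17 ± 0.261 FPKM (log2 0.32, adjusted p = 0.0426). Nr4a1 lost its call on leaving out wild-type spleens 2 or 4 or TTPΔARE spleen 4 (adjusted p = 0.0513, 0.0645 and 0.0615), and Nfatc2 without any single spleen other than TTPΔARE replicate 4 (0.0550 to 0.140). Smad3 (0.24, adjusted p = 0.0695) and the Ikaros family member Ikzf3 (-0.24, adjusted p = 0.208) did not pass.

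The profile of Foxp3 NM_054039 over the 8 spleens was set against 3679 symbols of similar spread. By the root mean square difference of centred log2 values the nearest were Shmt1 (0.0890), Lrrc8b (0.0892), Mgst2 (0.0926), Tcf7l1 (0.0938) and Pfkfb3 (0.0955). The low value of TTPΔARE replicate 4 dominates the Foxp3 profile, so that these 5 are also lowest in that spleen follows from how they were chosen.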

How the data were processed

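The authors deposited 1 table of FPKM values per RefSeq transcript and sample; the submitters' processing notes name BWA and the mm10 build. No source used here gives the counting tool, the strand setting or the treatment of shared reads. No count model was applied, since FPKM values are no counts. Low values (at most 0.5 FPKM) were whole fragments within 0.05 for 51.9 to 55.0% at the best depth, so fragment numbers are estimates. Those averaging 0.5 FPKM or more were tested on log2(FPKM + 0.5), which understates changes of low transcripts, with limma 3.58.1 in R 4.3.3 (variance trend, two-sided, Benjamini-Hochberg), threshold 0.05. The Cd4 comparison subtracted log2(Cd4 + 0.5) of the same spleen from every transcript. In list counts each symbol is represented by its transcript with the highest mean. Motifs were searched in GENCODE M21, and gene positions are RefSeq's for GRCm38.p6. Simulated data with known changes were used to test the limma code.

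Groups are the genotype labels; no batch, litter or pairing is given. The members, lists and tests were chosen with earlier results of these data known. Named genes are the members, Cd4, Zfp36, per list the 3 smallest p and the highest mean, and the 5 profiles nearest to Foxp3 (mean of at least 1 FPKM, SD 0.67 to 1.5 times its own). Not every such gene is named. Penk, Fgl2, Ccr4, the ligands, partner chains and other examples that did not pass were named after their values were seen. No 2 spleens had near-identical values (root mean square log2 difference at least 0.175). Tables used pandas 2.3.3 and numpy 2.4.6 under Python 3.11.15; matplotlib 3.10.9 drew the figures.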

Additional observations from a re-analysis of the deposited data

Results flagged for a closer look

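In groups of 4 spleens, 1 value was set against the others of its group by Dixon's ratio for 48 groups, of which chance flags about 1 in 20, and 6 passed the 95% critical value of 0.829. TTPΔARE replicate 4 was low for Foxp3 NM_054039 (0.577 FPKM, next 1.02), for the same transcript relative to Cd4 (3.63%, next 5.57%) and for Tnfrsf4 (1.73 FPKM, next 2.81). Among wild-type spleens, replicate 4 was high for Foxp3 NM_054039 (1.25 FPKM, next 1.03), and replicate 1 was high for Tnfrsf4 (3.13 FPKM, next 2.54) and for Ctla4 relative to Cd4 (16.3%, next 11.1%).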

How the results depend on the processing

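The count of 0 member transcripts passing as measured held under every alternative run, as did the sign of both Tnfrsf18 transcripts. Relative to Cd4, 2 member transcripts, both of Tnfrsf18, passed with a pseudocount of 1 and at a threshold of 0.1. With array weights 4 passed, those 2, Ikzf4 and Foxp3 NM_001199348, and 0 passed with the erythroid covariate, with Cd3e or with the mean of the T cell markers as denominator; with single spleens left out it was 0 to 2. Over all lists 24 genes rose and 6 fell; with the erythroid covariate it was 0 and 0, at a threshold of 0.1 15 fell, and with single spleens left out 6 to 40 rose and 4 to 10 fell (6 without TTPΔARE replicate 3, 40 and 10 without wild-type replicate 3). Zfp36 stood at 0.26 with the covariate (adjusted p = 0.567) and at 0.34 to 0.45 with single spleens left out.

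Signs turned for transcripts that did not pass. Relative to Cd4, a pseudocount of 0.1 gave -0.0260 for Foxp3 NM_001199347, -0.0048 for NM_054039 and -0.0030 for Ikzf2, and quantile normalization gave -0.0062 and -0.0011 for those Foxp3 transcripts, -0.0147 for Ikzf2 and -0.0050 for Ctla4. With Cd3e as denominator Foxp3 NM_001199347 was at -0.18, NM_054039 at -0.17, Ctla4 at -0.19, Ikzf2 at -0.20, Il2ra at -0.12 and Tnfrsf4 at -0.0676; with the T cell mean the first 5 were at -0.0809, -0.0742, -0.0932, -0.11 and -0.0198. As measured, quantile normalization gave -0.00037 for Foxp3 NM_001199348, and the erythroid covariate gave 0.0787 for Ctla4, 0.0045 for Foxp3 NM_001199347, 0.11 for Ikzf2, 0.11 for Il2ra and 0.14 for Tnfrsf4. With single spleens left out the ranges were -0.0336 to 0.10 for Foxp3 NM_001199348, -0.0352 to 0.15 for Icos and -0.10 to 0.11 for Tnfrsf4, and relative to Cd4 -0.0187 to 0.16 for Ctla4, -0.0142 to 0.0868 for Foxp3 NM_001199347, -0.0781 to 0.11 for Ikzf2 and 0.0245 to 0.13 for the Foxp3 NM_054039 ratio. The cause was not tested.

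Alternatives for the summed Tnfrsf18 transcripts, the ligands and the per-list counts were chosen after seeing the data. No paired analysis was possible because the labels give the spleens no shared replicate numbers. Depth limits Tnfrsf18 NM_021985 most, at an estimated 42.5 to 69.2 fragments. The limma intervals are for the difference between group means and rest on the spread among these spleens, so single spleens can lie outside them.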
